A study of Rattus norvegicus with 120 samples.

Results

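The effect of empagliflozin on the heart was compared with its effect on the kidney of obese ZSF1 rats, gene by gene. Of the 120 RNA-seq libraries in the series, 40 came from obese rats that received either vehicle (the vehicle group of study B) or empagliflozin (study B), and 39 of these entered the comparison: 10 heart vehicle, 10 heart empagliflozin, 9 kidney vehicle and 10 kidney empagliflozin libraries. The libraries were chosen by their labels alone, and 1 kidney vehicle library (replicate 8) was left out for its low number of counts. All rats were 30 weeks old and of the ZSF1 obese genotype, and compounds were given in the chow. The labels give no dose, duration or sex, call the tissue heart or kidney (the series' text also speaks of kidney cortex), and do not tie a heart to the kidney of the same rat, so the organs were treated as separate samples. The quantity reported throughout as the difference is the log2 change with empagliflozin in the heart minus the log2 change with empagliflozin in the kidney, so that a positive difference means a higher value of the change in the heart.

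Empagliflozin inhibits SGLT2, the transporter (gene Slc5a2) by which cells of the early proximal tubule of the kidney take filtered glucose back into the body, so the drug makes the body lose glucose and sodium in the urine. Cardiomyocytes have little or no SGLT2, and the heart meets the drug mainly through the blood: less glucose and insulin, more fatty acids and ketone bodies, a smaller plasma volume and lower blood pressure. The obese ZSF1 rat inherits defective leptin receptor alleles from both parental strains and is used as a model of obesity with diabetes, hypertension, kidney disease and heart failure with preserved ejection fraction. Both organs are rich in mitochondria and burn mainly fatty acids, while gluconeogenesis from lactate and amino acids belongs to the kidney and not to the heart.

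Gene counts added up to 6735291 to 21751772 per heart library and 4598858 to 19646263 per kidney library. Mitochondrially encoded transcripts made up 33.4 to 53.6% of the counts in heart and 10.1 to 17.2% in kidney. The organ labels fit the markers: before scaling, the tubule gene Umod had a median of 3918 CPM (counts out of 1000000 in the library) in kidney and 0.184 in heart, and the cardiomyocyte gene Tnnt2 had 6680 CPM in heart and 2.87 in kidney. In 4 heart libraries (vehicle replicates 5 and 7, empagliflozin replicates 6 and 7) the atrial light chain gene Myl7 was over 5 times the heart median of 215.6 CPM. Kidney empagliflozin replicate 1 held 475.7 CPM of Jchain, a gene of antibody-secreting cells, against a kidney median of 4.75. In every group, replicates 1 to 5 were on plate 1 and replicates 6 to 10 on plate 2, and plate within organ was a term of the fit.

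Empagliflozin had different effects in the organs for a small set of genes. Of 14789 genes tested, 154 (1.04%) differed between the organs at an adjusted p under 0.05 (edgeR quasi-likelihood test, Benjamini-Hochberg adjustment), and 2377 (16.1%) had an unadjusted p under 0.05. In 124 genes (0.838%) the heart change was the higher, and in 30 (0.203%) it was the lower. All 124 of the former had a negative kidney value and a positive heart value. Of the latter, 29 had a positive kidney value and a negative heart value, and 1, the angiotensin-converting enzyme gene Ace, had positive values in both organs. These signs are a description and not a result, since picking genes on the heart change minus the kidney change favours opposite signs: of all 14789 genes, 4192 had a negative kidney and a positive heart value and 4381 the reverse.

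Within the organs taken singly, the kidney had 173 genes past the same threshold (1.17%; 2337 genes or 15.8% unadjusted), 50 higher (0.338%) and 123 lower (0.832%) with empagliflozin. The heart had 0 (0%), with 1304 genes (8.82%) at an unadjusted p under 0.05; DESeq2's Wald test called 42 heart genes and limma voom 13. With each organ fitted alone, 92 kidney and 13 heart genes were called. The fit of both organs gives a gene the same spread between replicates in heart and kidney. Its SEs therefore do not show how precisely each organ was measured. Their median was 0.10 in heart and 0.097 in kidney on the log2 scale, over the 11681 genes measured in both organs. The median absolute change of these genes was 0.08 in heart and 0.10 in kidney. Of the 154 genes with a called difference, 50 had also changed in the kidney by the test and 0 in the heart. So for no gene did the heart part of the difference pass the test by itself. The organs are mixtures of cell types, and in such bulk samples fewer cells of a type and less RNA per cell cannot be told apart.

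Among the 11681 genes measured in both organs, 148 differed (1.27%), 122 with the heart change higher (1.04%) and 26 lower (0.223%). The genes with the higher heart change had a median of -0.26 in kidney and 0.20 in heart, and those with the lower heart change 0.35 in kidney and -0.23 in heart, all as log2 changes. Over all 11681 genes the heart and kidney changes had a Pearson correlation of -0.16 and a Spearman correlation of -0.24, which describes the genes of these libraries and carries no test, since genes are not replicates. Over the 8856 genes with at least 5 CPM in all 4 groups the values were -0.25 and -0.30.

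**Figure D1:**
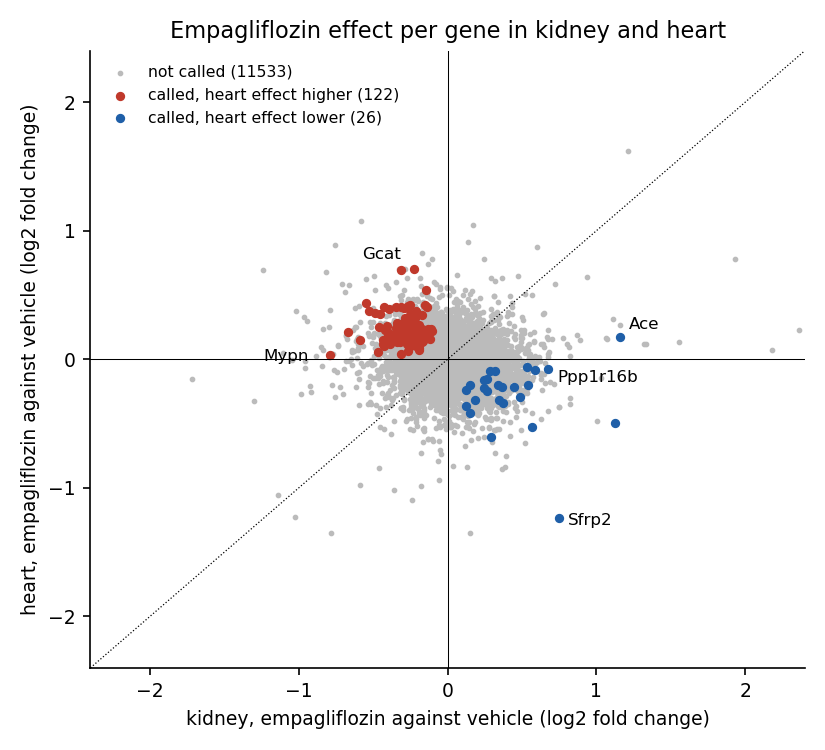
Log2 change with empagliflozin in kidney (x axis) and in heart (y axis) for the 11681 genes measured in both organs, 1 of which lies outside the plotted range of 2.4 on either side. Red points are the 122 genes with a higher change in heart, blue points the 26 with a lower one, the dotted line marks equal changes; red points lie at the upper left and blue points, Ace apart, at the lower right.

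Of the 173 kidney genes, 50 differed between organs and 123 did not pass that test. Where the gene was measured in both organs, 48 of 135 differed, and where it was scarce in 1 organ, 2 of 38. A kidney change without a called difference does not show that the heart changed alike, since the SE of the difference is larger than that of either change.

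The most firmly separated gene was Ace (ENSRNOG00000062101), which encodes angiotensin-converting enzyme, the peptidase that makes angiotensin II and that the kidney carries on the tubule brush border and the heart mainly on endothelium. In kidney its level ran from 8.78 to 14.2 CPM in vehicle (median 13.0) and from 16.2 to 36.9 CPM with empagliflozin (median 27.4). The lowest treated kidney lay above the highest vehicle kidney. In heart it ran from 63.5 to 84.0 CPM in vehicle (median 73.3) and from 72.1 to 101 CPM with empagliflozin (median 82.5), and these ranges overlapped. The kidney change was 1.16 ± 0.10 (SE, log2; adjusted p = 6.93e-10), the heart change 0.18 ± 0.09 (adjusted p = 0.588), and the difference -0.98 ± 0.14 (adjusted p = 0.000250). The difference was -0.95 in plate 1 and -1.05 in plate 2, and it stayed past the threshold in all 39 fits that left out 1 library and in all 20 alternative analyses. It was the only one of the 41 named differences for which that held in all 20. Of 11 tested genes of the renin, angiotensin and aldosterone list, Ace alone had a called difference.

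The start of the Ace gene is shown because it is the gene whose response was most firmly separated by organ, and the letters are the 250 bases before its annotated start in RefSeq's GRCr8 assembly (chr10:91409879-91410128, plus strand), with capitals marking GC boxes (GGGCGG) and a TATA box (TATAAA, found here on the opposite strand):
Ace: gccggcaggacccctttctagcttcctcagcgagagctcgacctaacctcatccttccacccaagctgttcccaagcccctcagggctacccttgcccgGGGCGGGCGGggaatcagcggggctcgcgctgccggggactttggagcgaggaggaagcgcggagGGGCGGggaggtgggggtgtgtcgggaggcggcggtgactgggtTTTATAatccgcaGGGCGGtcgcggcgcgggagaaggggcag
The stretch holds 4 GC boxes, starting at -151, -147, -86 and -29 from the gene's start, the first pair overlapping, and the TATA match at -42. Both strands were searched. A GC box was found in the same window of 57.4% of the 10476 tested genes matched to a promoter and in 59.1% of the 22 matched genes with the lower heart change, and a TATA box in 6.72% of the tested genes. Its GC content was 69.2%, against a median of 60.0% for the tested genes.

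Of the 30 genes with a lower heart change 11 rose in kidney, Ace among them. Ppp1r16b, which encodes a regulatory subunit of protein phosphatase 1 known from endothelium, ran from 14.4 to 25.5 CPM in vehicle kidneys (median 19.7) and from 20.6 to 46.7 CPM in treated kidneys (median 32.7). In heart the values were 41.4 to 59.1 CPM (median 51.3) and 36.7 to 56.2 CPM (median 46.6). All 10 treated kidneys lay above the vehicle median, while the heart groups overlapped over most of their range. Its kidney change was 0.67 ± 0.09 (adjusted p = 5.54e-05), its heart change -0.08 ± 0.09 (adjusted p = 0.868) and its difference -0.75 ± 0.13 (adjusted p = 0.00417).

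Sema5a, a semaphorin with a role in axon guidance and vessel growth, ran from 22.0 to 35.7 CPM in vehicle kidneys (median 30.7) and from 27.2 to 56.8 CPM in treated ones (median 42.5). Hearts held 24.3 to 56.7 CPM (median 38.2) with vehicle and 23.0 to 48.5 CPM (median 32.1) with empagliflozin. In kidney 9 of 10 treated libraries exceeded the vehicle median. The kidney change was 0.54 ± 0.10 (adjusted p = 0.00446), the heart change -0.20 ± 0.10 (adjusted p = 0.582) and the difference -0.74 ± 0.15 (adjusted p = 0.0141), nearly the same in plate 1 (-0.80) and plate 2 (-0.68).

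Fads2 encodes a desaturase that starts the synthesis of long polyunsaturated fatty acids, and it was the 1 called gene of 18 tested for fatty acid synthesis and desaturation. Vehicle kidneys held 11.96 to 18.9 CPM (median 13.7) and treated kidneys 17.2 to 29.2 CPM (median 20.6). Heart levels were 3.48 to 6.06 CPM (median 5.195) and 2.80 to 6.27 CPM (median 4.51). Again the kidney groups were nearly apart and the heart groups were not: the kidney change was 0.59 ± 0.10 (adjusted p = 0.00143), the heart change -0.08 ± 0.12 (adjusted p = 0.963) and the difference -0.67 ± 0.16 (adjusted p = 0.0245). Fndc3b, an endoplasmic reticulum protein with fibronectin repeats, also rose in kidney, by 0.49 ± 0.12 (adjusted p = 0.0348), with a difference of -0.78 ± 0.17 (adjusted p = 0.0204).

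For the next genes the change in neither organ passed the test, only their difference did. Sfrp2, a secreted modulator of Wnt signalling made by fibroblasts, had the lowest value of these: hearts held 2.29 to 5.96 CPM (median 4.22) with vehicle and 0.652 to 2.93 CPM (median 1.46) with empagliflozin, while kidneys held 7.54 to 21.4 CPM (median 8.61) and 7.22 to 39.6 CPM (median 16.7). All 10 vehicle hearts lay above the treated median and all 10 treated hearts below the vehicle median. Its difference was -1.99 ± 0.37 (adjusted p = 0.0106), from a heart change of -1.24 ± 0.30 (adjusted p = 0.0882) and a kidney change of 0.75 ± 0.22 (adjusted p = 0.0839). It was called in 18 of 19 alternatives and in all 39 fits that left out 1 library.

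Irs2, an adaptor that carries the insulin receptor's signal, had a difference of -0.66 ± 0.16 (adjusted p = 0.0257), with 0.34 ± 0.11 in kidney and -0.32 ± 0.11 in heart, and all 10 treated hearts lay below the vehicle median and all 10 treated kidneys above theirs. The difference was -0.72 ± 0.18 (adjusted p = 0.0422) for Erbb3, a receptor for neuregulins. It was -0.89 ± 0.18 (adjusted p = 0.0154) for the zinc finger gene Zfp518b and -0.66 ± 0.17 (adjusted p = 0.0423) for Bace1, a membrane protease. The calls for Erbb3 and Bace1 were held in 24 and 19 of the 39 fits that left out 1 library, with differences between -0.80 and -0.62 and between -0.72 and -0.58.

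The remaining pair of low values each rest on 1 organ in which the gene was scarce. Lum, which encodes the matrix proteoglycan lumican, had the lowest difference of those named, -2.25 ± 0.56 (adjusted p = 0.0382). Its kidney level was 0.0641 to 0.949 CPM (median 0.397) with vehicle and 0.143 to 9.28 CPM (median 0.503) with empagliflozin, the highest value being that of replicate 1, the library with the antibody transcripts, and without that library the difference was -1.16 and not called. In heart Lum had medians of 54.7 and 54.9 CPM. Cubn, which encodes the protein uptake receptor cubilin of the proximal tubule, had a difference of -1.17 ± 0.29 (adjusted p = 0.0389) that came from 0.600 to 1.79 CPM in vehicle hearts and 0.238 to 0.899 CPM in treated hearts, a total of 75 and 42 counts. Kidneys held 184 to 276 CPM of Cubn with vehicle and 177 to 327 with empagliflozin, with a change of 0.25 ± 0.10 (adjusted p = 0.211).

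Of the 124 genes with a higher heart change, 39 fell in kidney and 0 rose in heart by the test. Ddt (ENSRNOG00000068887) encodes D-dopachrome tautomerase, a relative of the cytokine MIF. Its kidney level ran from 98.9 to 172 CPM with vehicle (median 139.6) and from 73.6 to 137 CPM with empagliflozin (median 99.1), and its heart level from 37.0 to 75.0 CPM (median 52.9) and from 57.3 to 83.7 CPM (median 71.2). The treated kidneys all lay below the vehicle median and the treated hearts all above theirs. The kidney change was -0.45 ± 0.09 (adjusted p = 0.00438), the heart change 0.35 ± 0.09 (adjusted p = 0.100) and the difference 0.81 ± 0.12 (adjusted p = 0.000575). The difference was 1.18 in plate 1 and 0.43 in plate 2.

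Cyp2e1, a cytochrome P450 that oxidises ethanol, ketone bodies and fatty acids, fell in kidney. It ran from 66.2 to 119 CPM with vehicle (median 80.6) and from 33.7 to 76.4 CPM with empagliflozin (median 62.1), and all 10 treated kidneys lay below the vehicle median. Hearts held 15.9 to 29.2 CPM (median 22.4) and 18.5 to 41.1 CPM (median 30.3), with 8 of 10 treated hearts above the vehicle median. The kidney change was -0.55 ± 0.13 (adjusted p = 0.0258), the heart change 0.44 ± 0.14 (adjusted p = 0.284) and the difference 0.99 ± 0.19 (adjusted p = 0.0129), with 1.05 in plate 1 and 0.92 in plate 2. Without a plate term the call for Cyp2e1 stood, as it did for 5 of the 41 named differences.

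Gcat encodes the mitochondrial enzyme that cleaves the breakdown product of threonine into glycine and acetyl-CoA. Vehicle hearts held 4.00 to 9.88 CPM (median 7.12) and treated hearts 7.74 to 15.8 CPM (median 11.8), and all 10 treated hearts exceeded the vehicle median. Kidneys held 10.5 to 17.8 CPM (median 13.3) and 6.36 to 16.7 CPM (median 11.7). The heart change of 0.70 ± 0.15 missed the threshold with an adjusted p of 0.0681, the kidney change was -0.23 ± 0.14 (adjusted p = 0.431), and the difference was 0.93 ± 0.20 (adjusted p = 0.0185).

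Gamt encodes the methyltransferase of the last step of creatine synthesis. It ran from 46.6 to 82.8 CPM in vehicle kidneys (median 60.6) and from 28.04 to 66.2 CPM in treated kidneys (median 45.8), and in heart from 6.57 to 14.5 CPM (median 8.17) and from 8.74 to 15.3 CPM (median 12.1). Every treated heart lay above the vehicle median and 8 of 10 treated kidneys lay below theirs. Gamt fell in kidney by 0.53 on the log2 scale (SE 0.12, adjusted p = 0.0209), its heart change was 0.38 ± 0.14 (adjusted p = 0.389), and the difference was 0.90 ± 0.18 (adjusted p = 0.0154).

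Pc encodes pyruvate carboxylase, which feeds gluconeogenesis in the kidney and refills the citric acid cycle in the heart. Vehicle kidneys held 145 to 215 CPM (median 165) and treated kidneys 115 to 179 CPM (median 128), and hearts 32.3 to 51.4 CPM (median 43.7) and 41.2 to 64.2 CPM (median 53.0). The kidney change was -0.41 ± 0.09 (adjusted p = 0.0212), the heart change 0.26 ± 0.09 (adjusted p = 0.374) and the difference 0.67 ± 0.13 (adjusted p = 0.0142). The size of the difference was alike in the plates, at 0.60 and 0.71, but the heart change was 0.08 in plate 1 and 0.43 in plate 2.

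Mgst3, a membrane-bound glutathione transferase and peroxidase, was named after its values had been seen. It ran from 95.0 to 147 CPM in vehicle kidneys (median 131) and from 77.3 to 108 CPM in treated kidneys (median 98.5), and from 199.8 to 347 CPM (median 288) and 288 to 398 CPM (median 319) in heart. All 10 treated kidneys lay below the vehicle median and 9 of 10 treated hearts above theirs. Mgst3 fell in kidney by 0.40 (SE 0.07, adjusted p = 0.00244), with a heart change of 0.19 ± 0.07 (adjusted p = 0.389) and a difference of 0.59 ± 0.10 (adjusted p = 0.00396).

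Shmt2, the mitochondrial serine hydroxymethyltransferase, was the 1 called gene of 17 on the list of ATF4 targets. Kidneys held 67.7 to 93.4 CPM (median 76.1) with vehicle and 49.7 to 77.0 CPM (median 58.9) with empagliflozin, hearts 26.6 to 36.9 CPM (median 32.4) and 30.5 to 41.1 CPM (median 35.7). It fell in kidney by 0.35 (SE 0.07, adjusted p = 0.00549) and its difference was 0.51 ± 0.10 (adjusted p = 0.0129).

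**Figure D2:**
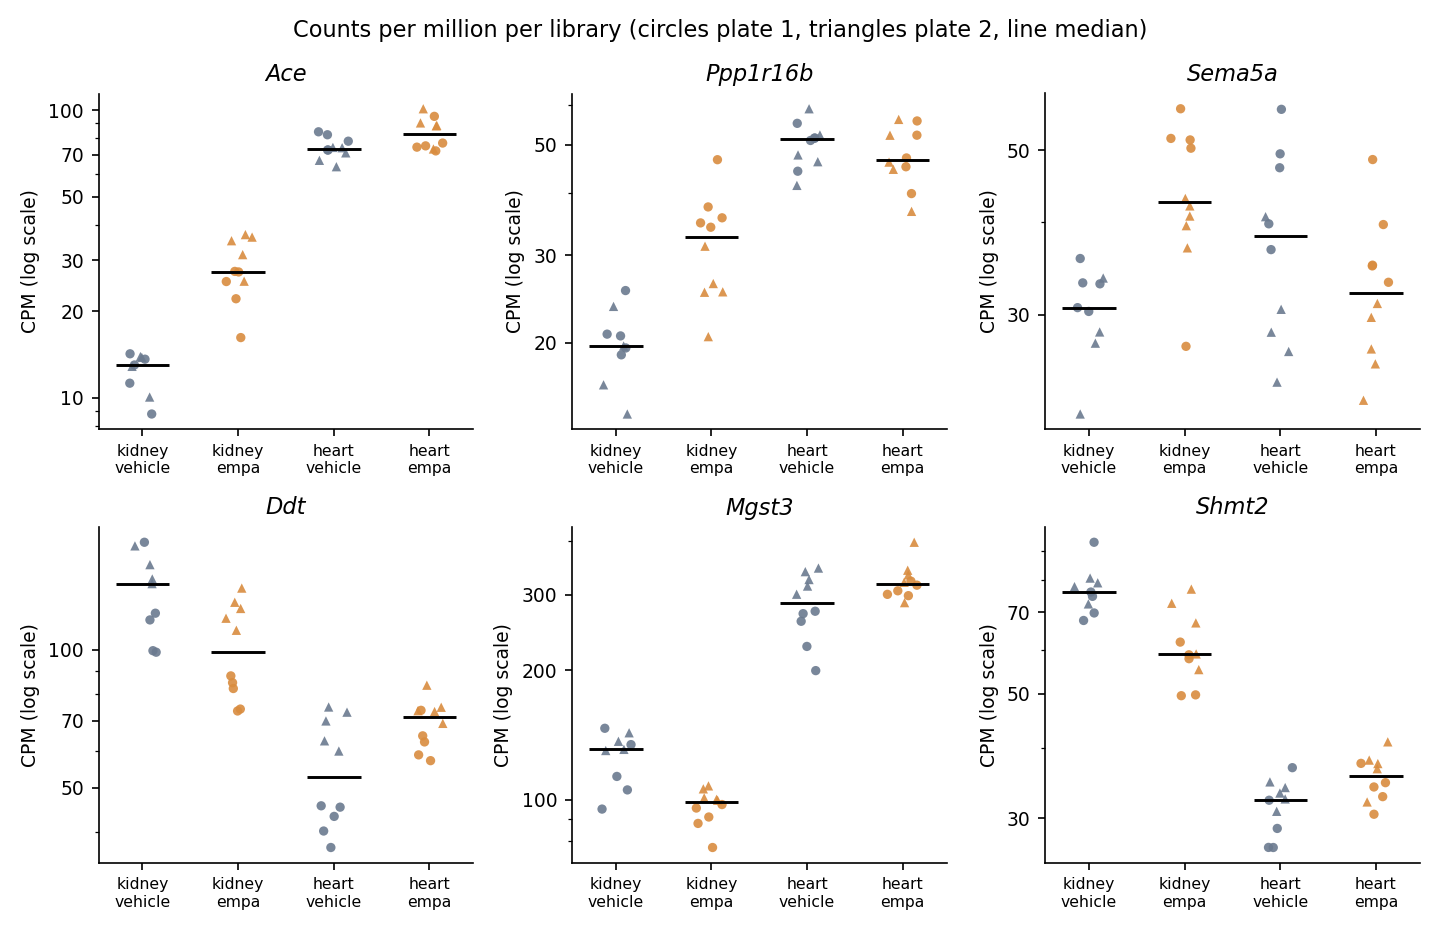
Level of 6 genes in each of the 39 libraries, in CPM on a log axis, by organ and treatment; circles are plate 1, triangles plate 2, and the line is the median of the group. Ace, Ppp1r16b and Sema5a are higher in treated than in vehicle kidneys, Ddt, Mgst3 and Shmt2 are lower there, and the heart groups overlap in each panel.

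Several further genes of this direction had a negative kidney change and a positive heart change in the fit, some of them small. Abcc8, the sulfonylurea receptor subunit of ATP-sensitive potassium channels, fell in kidney by 0.67 (SE 0.16, adjusted p = 0.0302) from a low level (medians of 4.23 and 2.88 CPM), and its difference was 0.88 ± 0.21 (adjusted p = 0.0282). Mypn, which encodes the sarcomere protein myopalladin, fell in kidney by 0.79 (SE 0.15, adjusted p = 0.00446), from a median of 3.61 to 2.14 CPM, while its heart medians were 147 and 148 CPM, and the difference was 0.82 ± 0.18 (adjusted p = 0.0204). Skeletal muscle transcripts differed between the kidney libraries: the 7 tested markers had a median kidney change of -0.93, with 0 called, and their summed level ran from 5.15 to 184 CPM with vehicle (median 12.1) and from 7.66 to 133.5 CPM with empagliflozin (median 12.03). The muscle myosin gene Myh4 was at 112.5 and 128.7 CPM in vehicle replicates 1 and 6 and at 73.7 CPM in treated replicate 7, against a kidney median of 5.74. Mypn was at 4.31 and 5.36 CPM in those vehicle replicates and at 3.72 CPM in that treated one, which was the highest of its group. Without vehicle replicate 1 its kidney change was -0.73 (adjusted p = 0.0121) and without replicate 6 -0.74 (adjusted p = 0.0117), and the part of muscle in it was not tested further. The other members with the highest values passed only in the difference. Gpt, the alanine aminotransferase of the cytosol, had 0.83 ± 0.18 (adjusted p = 0.0170), with 0.41 ± 0.12 in heart. Its kidney medians were alike, at 7.15 CPM with vehicle and 7.21 CPM with empagliflozin. Chchd10, a protein between the mitochondrial membranes, had a difference of 0.85 ± 0.18 (adjusted p = 0.0185), and Pyroxd2, a mitochondrial oxidoreductase, 0.79 ± 0.16 (adjusted p = 0.0154).

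Glis1, a zinc finger transcription factor, had the highest named difference, 1.02 ± 0.26 (adjusted p = 0.0396). It rests on a heart level of 0.300 to 1.29 CPM with vehicle (65 counts in all) and 0.715 to 2.47 CPM with empagliflozin (125 counts), with medians of 6.67 and 6.20 CPM in kidney. Cyp4f1, a fatty acid hydroxylase of a P450 subfamily with close relatives between which counts can be split, had 1.00 ± 0.25 (adjusted p = 0.0396), with medians of 3.21 and 4.99 CPM in heart and 89.0 and 78.5 CPM in kidney. These calls were the less firm ones: Glis1 kept its call in 20 and Cyp4f1 in 24 of the 39 fits without 1 library, with differences of 0.93 to 1.16 and 0.89 to 1.10.

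Nuclear genes of the respiratory chain were among the genes with a higher heart change. Of 26 tested members of the respiratory chain list, 5 had a called difference, all with the heart change higher, which was so for 0.838% of all genes tested and 1.04% of those measured in both organs, and 23 of 26 (88.5%) had a positive difference, against 50.3% of all genes measured in both organs. The median difference was 0.27, from -0.18 in kidney and 0.10 in heart, and over all genes measured in both organs it was 0.00, from -0.01 and 0.00. The called members were Cox5b and Cox4i1 of cytochrome c oxidase, Atp5mc1 and Atp5f1d of ATP synthase and Ndufb8 of complex I. Kidney empagliflozin replicate 1, the library with antibody transcripts, had the lowest summed level of this list, 4977 CPM (next treated kidney 6285, group median 6852). Without it, 57 genes instead of 123 were called lower in kidney, and 93 instead of 124 had the higher heart change. Its part in the values of this list was not tested.

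Cox5b ran from 120.2 to 221 CPM in vehicle kidneys (median 164) and from 97.3 to 177 CPM in treated ones (median 127), and from 316 to 715 CPM (median 561) and 505 to 772 CPM (median 587) in heart. Its kidney change was -0.36 ± 0.09 (adjusted p = 0.0360), its heart change 0.20 ± 0.09 (adjusted p = 0.498) and its difference 0.56 ± 0.13 (adjusted p = 0.0212). In both organs the groups overlapped. Vehicle hearts of plate 1 held 316 to 486 CPM and those of plate 2 held 636 to 715, with none in between. The differences of Atp5mc1 (0.49 ± 0.11, adjusted p = 0.0193) and Ndufb8 (0.40 ± 0.10, adjusted p = 0.0305) were of like size.

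Families of mitochondrial genes picked by their symbols, after the values had been seen, leaned the same way, and no weight as independent evidence attaches to them. Their counts stand beside 1.04% called higher and 50.3% positive among all genes measured in both organs. Of 35 complex I genes 8 had a called difference, all higher, with 94.3% positive and a median of 0.38. Of 15 ATP synthase genes 3 were called (100% positive, median 0.32), and of 14 cytochrome c oxidase genes 3 (median 0.37). All 67 genes of the mitochondrial ribosome, which translates the mitochondrial genome's own messages, had a positive difference, with a median of 0.26, and 6 were called: Mrpl12, Mrpl14, Mrpl21, Mrpl54, Mrpl55 and Mrps11.

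Mrps11 showed the size of such a change: kidneys held 22.5 to 36.3 CPM (median 29.2) with vehicle and 19.6 to 29.5 CPM (median 24.8) with empagliflozin, and hearts 17.2 to 30.4 CPM (median 24.0) and 22.2 to 33.7 CPM (median 27.8). It fell in kidney by 0.34 (SE 0.08, adjusted p = 0.0211) and differed between organs by 0.55 ± 0.11 (adjusted p = 0.0152). Ndufb7, an accessory subunit of complex I, had the highest difference of the called members, 0.75 ± 0.18 (adjusted p = 0.0267), with -0.34 ± 0.13 in kidney and 0.41 ± 0.12 in heart, neither past the threshold.

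Families outside the mitochondrion, also picked by symbol after the values had been seen, had positive medians too. Of 34 proteasome genes, which encode the protease that degrades tagged proteins, 4 were called (Psmb3, Psmb4, Psmb5 and Psmb6) and 91.2% were positive, with a median of 0.18, beside the same 1.04% and 50.3% over all genes. For Psmb6, a catalytic subunit, the difference was 0.37 ± 0.08 (adjusted p = 0.0154) and the kidney change -0.22 ± 0.05 (adjusted p = 0.0355). Of 64 cytosolic ribosome genes, which have many processed copies in the genome and whose counts are uncertain for that reason, 0 were called, 89.1% were positive and the median was 0.17.

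The promoters of 4 called genes of these families are shown because they hold a match to the motif of NRF1, a transcription factor known to act on genes of the respiratory chain; each line gives the 250 bases before the gene's start from RefSeq's GRCr8 assembly on the gene's own strand, with capitals marking the match to CGCANGCGC, searched on both strands, for Atp5mc2 (chr7:135678219-135678468, minus strand), Ndufb10 (chr10:14255967-14256216, minus strand), Atp5f1d (chr7:10214351-10214600, minus strand) and Ndufv3 (chr20:9613536-9613785, plus strand):
Atp5mc2: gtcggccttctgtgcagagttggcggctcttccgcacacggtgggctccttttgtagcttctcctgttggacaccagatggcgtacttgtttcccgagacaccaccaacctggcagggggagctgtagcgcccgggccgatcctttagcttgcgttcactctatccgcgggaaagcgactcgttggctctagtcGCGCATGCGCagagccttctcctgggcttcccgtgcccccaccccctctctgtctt
Ndufb10: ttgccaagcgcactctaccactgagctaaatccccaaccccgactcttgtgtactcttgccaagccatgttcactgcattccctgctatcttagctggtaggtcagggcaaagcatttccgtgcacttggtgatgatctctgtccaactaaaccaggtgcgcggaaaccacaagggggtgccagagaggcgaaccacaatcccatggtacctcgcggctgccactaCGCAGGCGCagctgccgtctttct
Atp5f1d: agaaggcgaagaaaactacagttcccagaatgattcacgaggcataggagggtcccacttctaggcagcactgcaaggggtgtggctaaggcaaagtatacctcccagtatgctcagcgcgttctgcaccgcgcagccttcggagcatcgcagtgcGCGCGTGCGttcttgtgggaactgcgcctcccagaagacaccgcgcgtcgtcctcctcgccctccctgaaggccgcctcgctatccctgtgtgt
Ndufv3: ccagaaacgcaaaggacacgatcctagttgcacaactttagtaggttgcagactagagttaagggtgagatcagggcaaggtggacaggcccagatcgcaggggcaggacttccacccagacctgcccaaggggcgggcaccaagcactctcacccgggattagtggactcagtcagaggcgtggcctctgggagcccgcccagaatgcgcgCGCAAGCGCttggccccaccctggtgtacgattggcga
The matches start at -56 and -55 in Atp5mc2, overlapping on opposite strands, at -24 in Ndufb10, at -94 in Atp5f1d and at -38 in Ndufv3. Such a match was found in 4 of 19 called genes of the mitochondrial ribosome, complex I, ATP synthase and cytochrome c oxidase families with a promoter in the table (21.1%), in 19.3% of the 109 tested genes of these families, in 11.2% of the 10476 tested genes and in 5.58% of all promoters. Among the 100 matched genes with the higher heart change it was 14.0%. The differences of these 4 genes were 0.40 ± 0.09 for Atp5mc2 (adjusted p = 0.0204), 0.48 ± 0.11 for Ndufb10 (adjusted p = 0.0245), 0.59 ± 0.14 for Atp5f1d (adjusted p = 0.0351) and 0.52 ± 0.13 for Ndufv3 (adjusted p = 0.0396), and of the 4 Ndufb10 alone fell in kidney, by 0.34 (SE 0.08, adjusted p = 0.0235).

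**Figure D3:**
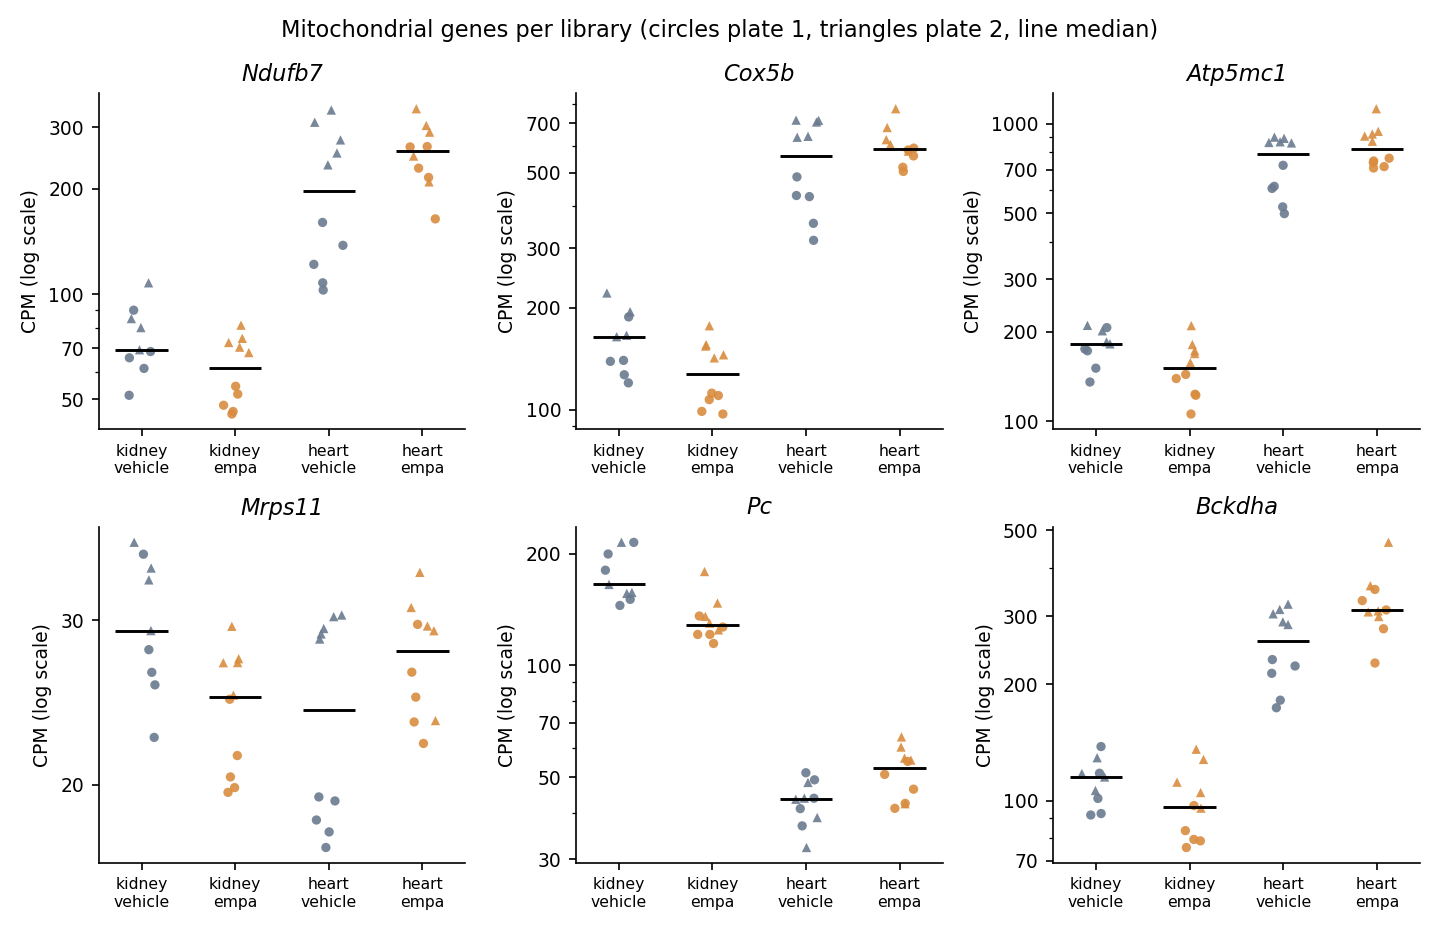
Level of 6 genes of mitochondrial proteins in each of the 39 libraries, in CPM on a log axis, by organ and treatment; circles are plate 1, triangles plate 2, and the line is the median of the group. In vehicle hearts the plate 1 libraries lie below all plate 2 libraries for Ndufb7, Cox5b, Atp5mc1, Mrps11 and Bckdha but not for Pc.

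Among the lists for fuel use, called members were few while most signs were positive. Over all genes measured in both organs 1.04% were called higher and 50.3% were positive, and a single called gene in a list of about 20 is not read as a result about that list. Of 20 genes of mitochondrial fatty acid oxidation 2 were called, and 90.0% had a positive difference (median 0.15). They were Etfb, a subunit of the flavoprotein that passes electrons from fatty acid dehydrogenases (0.62 ± 0.13, adjusted p = 0.0179), and Eci1, an isomerase for unsaturated fatty acids (0.53 ± 0.14, adjusted p = 0.0414). Eci1 fell in kidney by 0.43 (SE 0.10, adjusted p = 0.0212), from 82.8 to 138 CPM with vehicle to 53.5 to 102 CPM with empagliflozin, and its heart change was 0.11 ± 0.09. Its call was held in 21 of the 39 fits without 1 library (0.49 to 0.59).

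Of 26 genes of branched-chain amino acid breakdown 1 was called, and 80.8% were positive (median 0.18, from -0.04 in kidney and 0.13 in heart). The plates went opposite ways, with heart medians of -0.06 in plate 1 and 0.23 in plate 2 and kidney medians of -0.15 and 0.09. The called gene was Bckdha, a subunit of the branched-chain ketoacid dehydrogenase that commits these amino acids to oxidation. Hearts held 174 to 322 CPM (median 259) with vehicle and 227 to 466.1 CPM (median 311) with empagliflozin, and kidneys 91.9 to 138 CPM (median 115) and 75.7 to 136 CPM (median 96.4). Of the treated hearts 9 of 10 lay above the vehicle median. The heart change was 0.37 ± 0.09 (adjusted p = 0.128), the kidney change -0.22 ± 0.10 (adjusted p = 0.271) and the difference 0.59 ± 0.14 (adjusted p = 0.0245).

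Of the regulators of that step, the inhibitory kinase gene Bckdk had a difference of 0.22 ± 0.08 (adjusted p = 0.173) and the phosphatase gene Ppm1k -0.11 ± 0.34 (adjusted p = 0.915). Of 20 citric acid cycle genes 0 were called, 85.0% were positive and the median was 0.14. Of 18 glycolysis genes 1 was called, Aldoa, the aldolase of muscle (0.40 ± 0.09, adjusted p = 0.0204), and of 10 genes for gluconeogenesis and fructose use 1, Pc. Cubn was the 1 called gene of 23 proximal tubule markers and Cyp2e1 the 1 of 7 hepatocyte markers. Of the 42 lists 11 held a called difference and 31 held none.

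Some lists leaned the other way in their signs without passing the test gene by gene. Over all genes tested 0.203% were called lower, and 50.3% of the genes measured in both organs were positive. A count of 0 or 1 called gene in such a list is not read as a result about it. In the matrix and fibroblast list the median difference was -0.26 over 28 tested genes, 1 of which was called (Lum), and 16% of the 25 measured in both organs were positive. The median over those 25 was -0.07 in plate 1 and -0.43 in plate 2, with heart medians of -0.01 and -0.37. For 22 cell cycle genes 0 were called, with a median difference of -0.40, and of the 15 measured in both organs 6.67% were positive. The summed level of the cell cycle genes reached its highest kidney value, 229 CPM, in empagliflozin replicate 1, where T and B lymphocyte genes summed to 424 CPM (group median 31.6) and plasma cell genes to 567 CPM (group median 132.5). In kidney the median change of the cell cycle genes was 0.40 in plate 1, which holds that library, and -0.05 in plate 2, and in heart -0.10 and -0.32. The part of these cells in the cell cycle values was not tested.

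**Figure D4:**
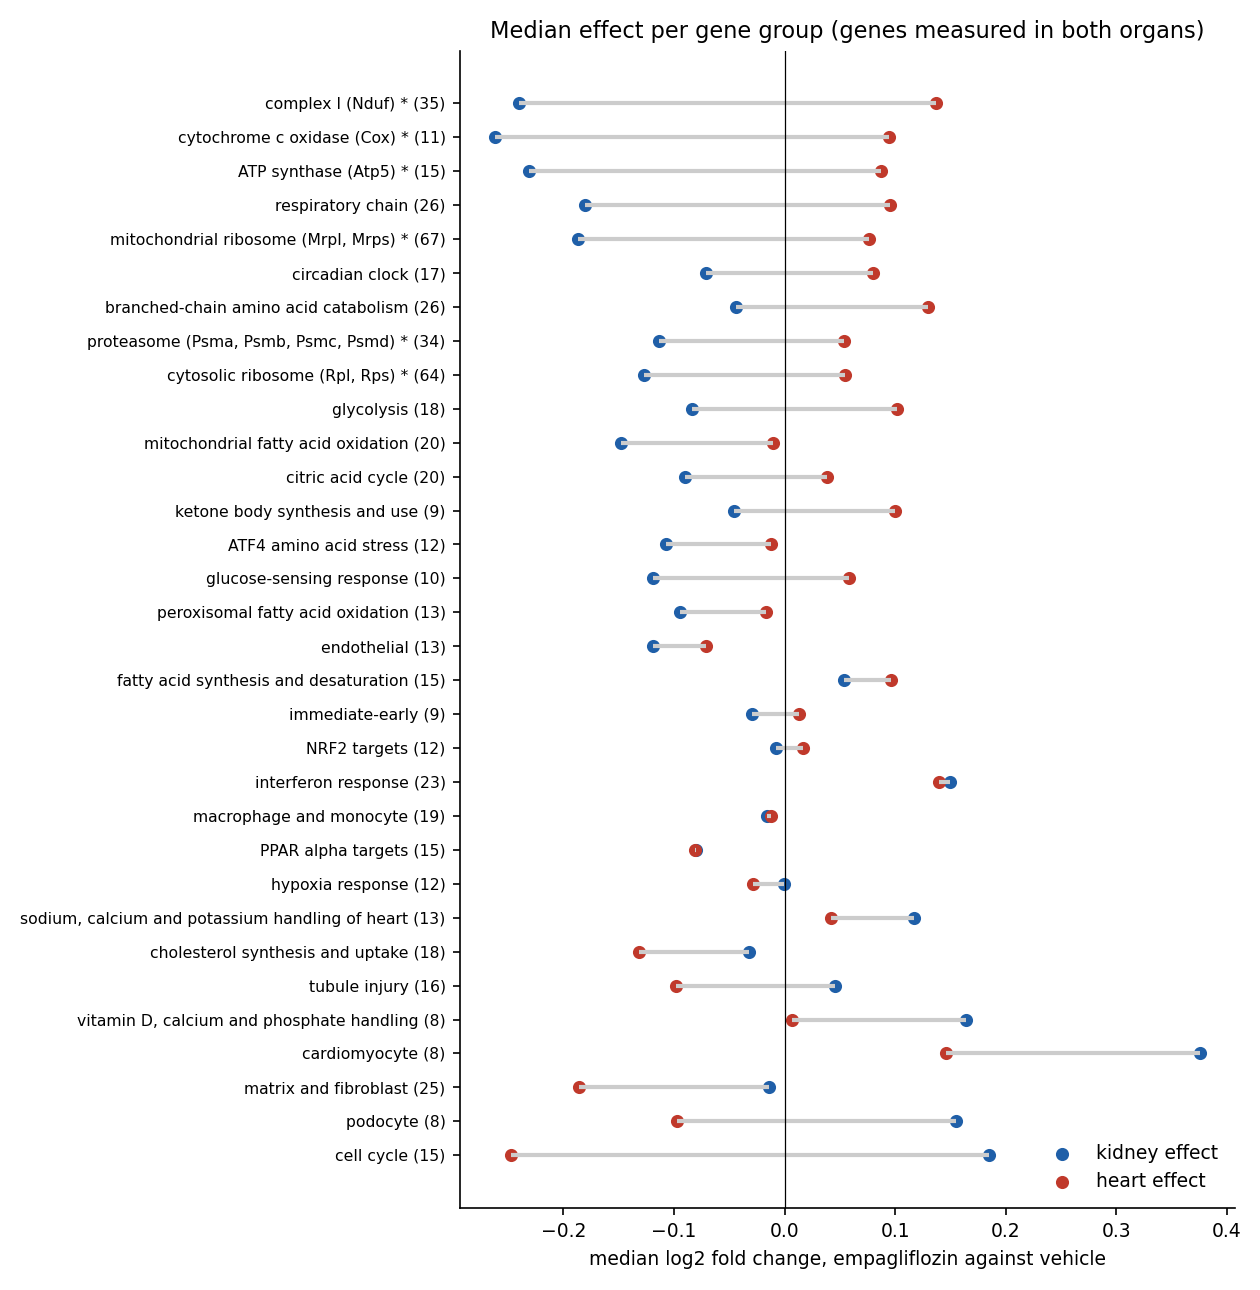
Median log2 change with empagliflozin in kidney (blue) and in heart (red) for each gene list with at least 8 genes measured in both organs; an asterisk marks lists chosen after values were seen. The respiratory chain list has a kidney median below 0 and a heart median above 0 (-0.18 and 0.10), and cell cycle genes have the reverse (0.19 and -0.25).

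The number of genes with a called organ difference was not the same on the plates. With the effect of empagliflozin estimated in each plate, 1303 genes (8.81%) differed between organs in plate 1 and 1 gene (0.00676%), Ace, in plate 2. In heart 545 genes (3.69%) passed in plate 1 and 0 in plate 2 (1674 unadjusted), and in kidney 340 (2.30%) and 3 (0.0203%). Tested directly, the heart effect differed between plates in 659 genes (4.46%). The kidney effect did so in 0 (1315 unadjusted) and the organ difference in 5 (0.0338%, with 2366 unadjusted). Of the 545 heart genes of plate 1, 29.4% had the same sign in plate 2, against 39.5% of all genes tested, and of the 340 kidney genes of plate 1, 73.2%, against 58.1%. Of the 1303 differences of plate 1, 58.1% had the same sign in plate 2, against 51.6% of all genes.

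Of the 659 genes whose heart effect differed between plates, 236 had the higher effect in plate 1 and 423 the lower. Some respiratory chain genes were among the 236. In plate 1 Ndufb7 ran from 103 to 160.2 CPM in vehicle hearts (median 122) and from 164 to 264 CPM in treated hearts (median 229), with no overlap. In plate 2 it ran from 234 to 336 CPM (median 276) and from 209 to 338 CPM (median 290.1). Plate 1 vehicle hearts thus lay below every other heart library, and treated and vehicle hearts of plate 2 covered the same range. The heart effect on Ndufb7 differed between plates (0.85 in plate 1, -0.02 in plate 2, adjusted p = 0.0199). In kidney the effect was -0.45 and -0.22.

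Cox5b and Ndufa13 behaved in the same manner, with heart effects of 0.46 and -0.06 and of 0.63 and 0.01 (adjusted p for the difference between plates 0.0449 and 0.0318). For the 35 complex I genes the median kidney change was -0.34 in plate 1 and -0.10 in plate 2, and the median heart change 0.30 and -0.02. For the respiratory chain list the difference had a median of 0.43 in plate 1 and 0.14 in plate 2. For the 64 cytosolic ribosome genes the heart medians were 0.21 and -0.12. Other mitochondrial lists went the reverse way in heart. Their heart medians in plates 1 and 2 were -0.10 and 0.18 for the citric acid cycle and -0.06 and 0.23 for branched-chain amino acid breakdown. For mitochondrial fatty acid oxidation they were -0.14 and 0.10. Ace, Sema5a, Cyp2e1, Pc and Sfrp2 had differences of the same sign in both plates, with plate 2 values of -1.05, -0.68, 0.92, 0.71 and -1.71.

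Mitochondrially encoded transcripts moved with the plate too, from a median of 49.2% of counts in treated hearts of plate 1 to 38.3% in plate 2, and from 46.6% to 43.7% in vehicle hearts. With these transcripts removed before scaling, 175 genes differed between organs, 152 of them among the 154, and all 41 named calls stood. With no plate term in the fit 7 genes differed, and 5 of the 41 named calls stood. With plate 1 alone 36 and with plate 2 alone 1 of the 41 stood. What differs between the plates is not given in the labels, and its part in the organ difference was not tested beyond these values.

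**Figure D5:**
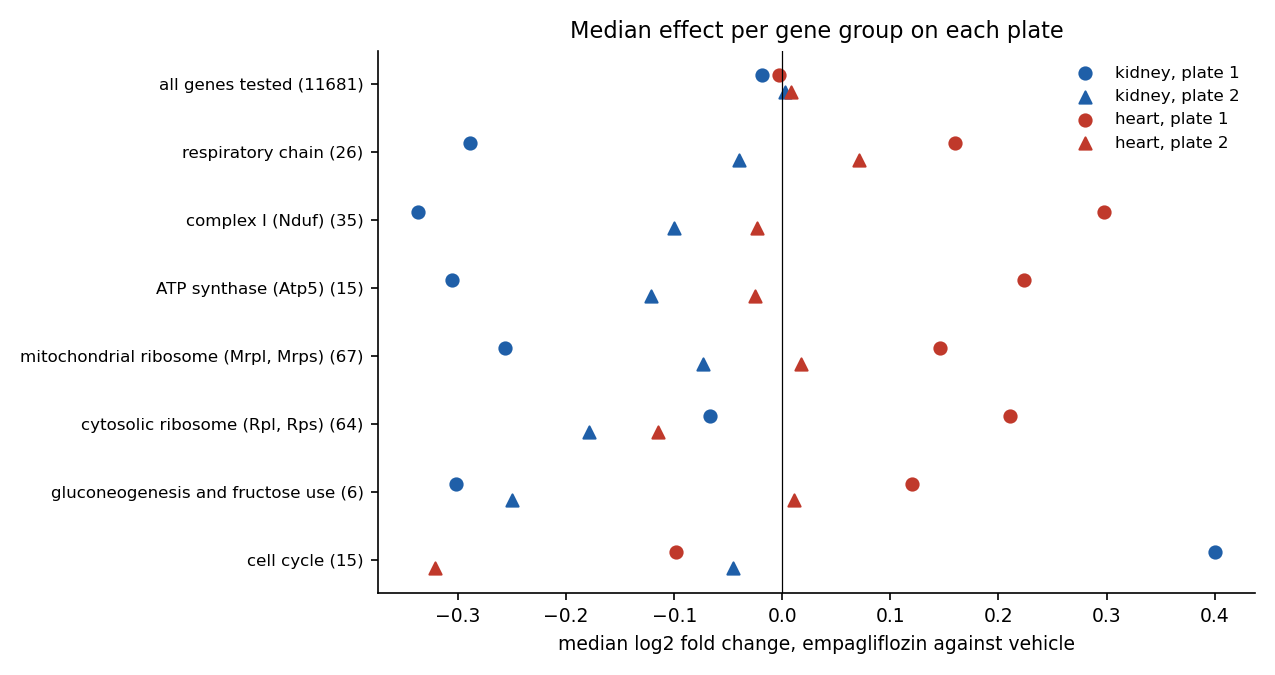
Median log2 change with empagliflozin in kidney and in heart, separately for plate 1 and plate 2, over the members of 8 gene groups measured in both organs. For complex I genes the heart median is 0.30 in plate 1 and -0.02 in plate 2, and the kidney medians are -0.34 and -0.10.

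The drug's target and the genes around it belong to the kidney. Slc5a2 ran from 40.9 to 77.4 CPM in vehicle kidneys (median 59.4) and from 32.7 to 168 CPM in treated kidneys (median 50.8), with a kidney change of 0.09 ± 0.20 (adjusted p = 0.852). In the 20 hearts it had 6 counts in all, 2 with vehicle and 4 with empagliflozin, so no heart change could be estimated with any precision. The related transporter Slc5a1 had medians of 13.9 and 13.5 CPM in kidney and 4 counts over all hearts.

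Some genes of vitamin D and phosphate handling changed in kidney, and none had a called difference between organs. Of the 18 tested genes of this list 5 changed in kidney, 2 higher and 3 lower, against 1.17% of all genes tested, and 8 of the 18 were measured in both organs. Cyp24a1, the enzyme that inactivates vitamin D, ran from 56.6 to 113 CPM in vehicle kidneys (median 61.4) and from 203 to 433 CPM in treated kidneys (median 235), with no overlap, and it rose by 1.87 ± 0.14 (adjusted p = 2.69e-12). Hearts held 3 counts of it with vehicle and 1 with empagliflozin, too few to estimate a heart change. Vdr, the vitamin D receptor, rose by 1.112 ± 0.188 in kidney (adjusted p = 0.00143), from a median of 13.4 to 26.4 CPM, and its heart medians were 1.49 and 1.85 CPM with a change of 0.32 ± 0.30. Vdr was measured in both organs (123 and 167 counts in vehicle and treated hearts), and its difference of -0.80 ± 0.36 did not pass the test (adjusted p = 0.254).

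Cyp27b1, the enzyme that activates vitamin D, fell in kidney by 1.08 (SE 0.28, adjusted p = 0.0446), and the phosphate transporter genes Slc34a1 and Slc34a3 by 0.44 (SE 0.11, adjusted p = 0.0343) and 1.01 (SE 0.24, adjusted p = 0.0401). Apoc2 and Apoc3, which encode an activator and an inhibitor of lipoprotein lipase, moved in opposite directions in kidney: Apoc2 rose by 1.49 ± 0.26 (adjusted p = 0.00446) and Apoc3 fell by 0.80 (SE 0.21, adjusted p = 0.0488). Fbp1, a phosphatase of gluconeogenesis, fell by 0.55 (SE 0.13, adjusted p = 0.0230), from a median of 311 to 224 CPM, with medians of 0.759 and 0.642 CPM in heart. None of these had a called difference, but hearts held too few counts of most of them to estimate a heart change. Vehicle and treated hearts held 9 and 2 counts of Cyp27b1, 0 and 0 of Slc34a3, 1 and 0 of Apoc2 and 5 and 7 of Apoc3. Slc34a1 had a heart median of 0.148 CPM before scaling.

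Fuel genes of the heart give the converse case, with heart values far from 0 that did not pass the test and kidney values on the same side. Pdk4, the kinase that shuts off pyruvate dehydrogenase when fatty acids are burned, ran from 288 to 972 CPM in vehicle hearts (median 758) and from 328 to 624 CPM in treated hearts (median 443). All 10 treated hearts lay below the vehicle median. Its heart change was -0.58 ± 0.13 (adjusted p = 0.0681), its kidney change -0.38 ± 0.14 (adjusted p = 0.146) and its difference -0.20 ± 0.19 (adjusted p = 0.622).

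Angptl4, a secreted inhibitor of lipoprotein lipase that fatty acids induce, had a heart change of -0.98 ± 0.20 (adjusted p = 0.0681), from a median of 57.9 to 25.6 CPM, and a kidney change of -0.59 ± 0.20 (adjusted p = 0.118). Bcat2, which starts branched-chain amino acid breakdown, had 0.49 ± 0.10 in heart (adjusted p = 0.0681), where all 10 treated libraries lay above the vehicle median, and 0.31 ± 0.11 in kidney (adjusted p = 0.144). Txnip, an inhibitor of glucose uptake that glucose induces, had -0.37 ± 0.09 in heart (adjusted p = 0.0882) and -0.12 ± 0.09 in kidney (adjusted p = 0.548). The differences of these genes were -0.39 ± 0.28, 0.18 ± 0.15 and -0.26 ± 0.13, with adjusted p of 0.505, 0.592 and 0.311. Of 21 PPAR alpha targets tested 0 had a called difference, against 1.04% of all genes tested, so that count is not read as a result. The median difference was 0.00, from -0.09 in kidney and -0.08 in heart. The 0.00 averages plates that went opposite ways: over the 15 targets measured in both organs the median difference was -0.23 in plate 1 and 0.17 in plate 2. Of these 15, 4 had a positive heart change, against 5745 of all 11681 genes measured in both organs. The heart medians of the 15 were -0.27 in plate 1 and 0.02 in plate 2.

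Genes of ketone body use were measured as well. Bdh1 and Oxct1, which encode enzymes of that pathway, had differences of 0.40 ± 0.21 (adjusted p = 0.343) and 0.02 ± 0.20 (adjusted p = 0.986). Cpt1a, which admits fatty acids into mitochondria, had -0.27 ± 0.11 (adjusted p = 0.200) and was called in 2 of 20 alternatives.

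Markers of organ damage had no called difference. Nppa, the atrial natriuretic peptide gene, ran from 460.0 to 12830 CPM in vehicle hearts and from 569.6 to 12200 CPM in treated hearts, and the atrial list as a whole was highest in vehicle replicate 7 (20290 CPM, group median 2342) and treated replicate 6 (19650 CPM, group median 1654); the part of atrial tissue in Nppa was not tested. Its heart change was -0.36 ± 0.45 (adjusted p = 0.888). Nppb, the ventricular natriuretic peptide, had -0.14 ± 0.15 (adjusted p = 0.849), with medians of 335 and 311 CPM. In kidney the tubule injury genes Havcr1 and Lcn2 had changes of 0.09 ± 0.11 (adjusted p = 0.742) and 0.18 ± 0.16 (adjusted p = 0.614). Of 24 tubule injury genes and 14 genes of cardiac stress tested, 0 and 0 had a called difference. Over all genes tested the share was 1.04%, so 0 in lists of this size is not read as a result about them.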

How the data were processed

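Poly-A RNA of frozen heart and kidney was made into stranded libraries, per the labels' protocols. The authors' deposited tables hold expected counts per gene (6.65% of the values used were not whole), per the file headers; build mRatBN7.2, the aligner STAR (2.7.3a) and the quantifier Salmon (1.5.2) are listed in the submitters' processing notes, as is DESeq2 (1.34.0). The deposited comparison tables also hold size-factor scaled counts, a signal the authors normalized, with log2 fold changes and p-values from the authors' own tests. These served only for checks and for the statements that name them.

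Expected counts of 80 columns were summed over the runs of a library and rounded, and 165 count columns of other samples or plates were not used. All 12 libraries sequenced again had deposited scaled values that followed both runs added together. Genes were filtered with filterByExpr over the 4 groups, scaled by TMM over all 39 libraries, and fitted with edgeR 4.0.16 in R 4.3.3 (quasi-likelihood F test, trended dispersion, 4 group means plus plate within organ, Benjamini-Hochberg adjusted p under 0.05). CPM are scaled by the same TMM factors unless said to be unscaled, are not per length, and serve to compare libraries for 1 gene. Kidney vehicle replicate 8 had 776172 counts and was left out. On simulated counts for 14674 genes, the test of the organ difference recovered 71.6% of 67 genes changed 1.5-fold, 88.1% of 67 changed 2-fold and 100% of 66 changed 4-fold, with 3.89% false among its calls. These shares describe the simulated counts. In the real libraries the heart effect differed between plates in 659 genes, and whether the shares carry over to such data was not tested. The labels say that 10 rats per condition were used, and p-values measure the spread between these libraries.

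The comparison, its gene lists (42 lists, 668 genes, 631 found by symbol, 5 symbols taken from the deposited description, 37 genes not analysed here) and the rules were chosen with earlier results of these data known. Genes were named by this rule: the 12 highest and 12 lowest called differences that had a symbol and reached 5 CPM in some group, as many as 3 called genes from each list, genes called in heart (0 found), and a set of 31 genes of the drug's known biology. Some of the latter are not reported here. Mrps11, Ndufa13, Psmb6, Mgst3, Atp5mc2, Ndufb10, Atp5f1d, Ndufv3, the symbol families and the list members with their differences printed outside this rule were chosen after their values were seen.

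Replicate numbers were not used to pair the libraries. The mean correlation of same-numbered vehicle and empagliflozin libraries' deviations was 0.08 within heart and -0.07 within kidney. Between same-numbered heart and kidney libraries it was 0.03 with vehicle and -0.04 with empagliflozin. Such values cannot show whether a heart and a kidney came from the same rat, since organs of 1 rat need not vary alike. The alternatives were DESeq2 1.42.0 size factors, TMM within organ, removal of mitochondrial transcripts, other filters, DESeq2's Wald test, limma 3.58.1 voom, a robust prior, other covariates (no plate, repeat run, replicate blocks), each plate alone, other sets of libraries, the original run alone, and leaving out each library. Effects per plate (plate by treatment terms) were added after seeing the data. Promoters came from RefSeq's GRCr8 table, matched by symbol.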

Additional observations from a re-analysis of the deposited data

Results flagged for a closer look

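The organ difference itself is a test of whether empagliflozin's effect differs between groups, and 154 genes passed it. Those named, by their difference (heart change minus kidney change, log2), were on the higher side Glis1 (1.02), Cyp4f1 (1.00), Cyp2e1 (0.99), Gcat (0.93), Gamt (0.90), Abcc8 (0.88), Chchd10 (0.85), Gpt (0.83), Mypn (0.82), Ddt (0.81), Pyroxd2 (0.79) and Ndufb7 (0.75). Smaller higher values belonged to Pc (0.67), Etfb (0.62), Ndufa13 (0.60), Bckdha (0.59), Mgst3 (0.59), Atp5f1d (0.59), Cox5b (0.56), Mrps11 (0.55), Eci1 (0.53), Ndufv3 (0.52), Shmt2 (0.51), Atp5mc1 (0.49), Ndufb10 (0.48), Aldoa (0.40), Ndufb8 (0.40), Atp5mc2 (0.40) and Psmb6 (0.37). On the lower side were Lum (-2.25), Sfrp2 (-1.99), Cubn (-1.17), Ace (-0.98), Zfp518b (-0.89), Fndc3b (-0.78), Ppp1r16b (-0.75), Sema5a (-0.74), Erbb3 (-0.72), Fads2 (-0.67), Irs2 (-0.66) and Bace1 (-0.66).

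In 12 of 245 combinations of a named gene and a group (4.90%; chance gives about 5%), 1 library stood apart from the rest of its group by Dixon's criterion. Of these, 5 were kidney empagliflozin replicate 1, the library with antibody transcripts, which was the lowest of its group for Cubn (177.4 CPM, group median 265), Cyp2e1 (33.68, median 62.1), Eci1 (53.47, median 84.2), Etfb (58.95, median 107) and Havcr1 (120.1, median 214). Heart empagliflozin replicate 8 was the highest for Aldoa (3187 CPM, median 2648) and Eci1 (575.3, median 378). Heart empagliflozin replicate 6, with atrial transcripts, was the highest for Cpt1a (97.24 CPM, median 70.1) and the lowest for Cyp4f1 (2.59, median 4.99), and heart vehicle replicate 7, also with atrial transcripts, the lowest for Pdk4 (287.5, median 758). Kidney empagliflozin replicate 6 was the highest for Erbb3 (65.12 CPM, median 37.6) and kidney vehicle replicate 1 for Irs2 (30.44, median 19.1).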

How the results depend on the processing

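The counts moved most with the handling of plates. Counts of called organ differences, kidney changes and heart changes (154, 173 and 0) were 7, 45 and 0 with no plate term, 1255, 111 and 628 with plate 1 alone, 1, 12 and 2 with plate 2 alone, and 298, 228 and 22 with plate by treatment terms, an alternative added after seeing the data. With a replicate block within organ they were 15, 38 and 0, and 9 organ differences remained with a replicate block across organs. The labels do not say that replicate numbers pair the libraries. A library correlated best with its own number in 1 of 10, 3 of 9, 2 of 9 and 1 of 10 cases. DESeq2's Wald test gave 475, 465 and 42, and limma voom 111, 399 and 13. The original run alone gave 27, 63 and 6 and a repeat run term 294, 253 and 0. With no low-count filter 92 differences were called, with the combination groups added 237, 192 and 6, and with each organ fitted alone 92 kidney and 13 heart genes. Leaving out libraries with another tissue gave 220, 284 and 4, and leaving out kidney empagliflozin replicate 1 gave 131, 109 and 1. For muscle in kidney, the mark of another tissue was Myh4 over 100 times the kidney median of 5.74 CPM. Kidney vehicle replicates 1 and 6 and treated replicate 7 (112.5, 128.7 and 73.7 CPM) did not reach it. TMM within each organ and removal of mitochondrial transcripts each called 1 heart gene. The cause of these changes was not tested.

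Leaving out 1 library gave 71 (without kidney vehicle replicate 2) to 439 (without heart empagliflozin replicate 10) organ differences. Other counts beyond 1.5 times were 249, 279 and 81 without kidney vehicle replicates 6, 7 and 10, 85 and 98 without kidney empagliflozin 4 and 9, 79, 74, 363 and 239 without heart vehicle 4, 5, 7 and 10, and 94, 89, 86, 321 and 88 without heart empagliflozin 1, 3, 4, 6 and 8. Kidney changes ranged from 53 (without kidney vehicle replicate 2) to 238 (without kidney vehicle 6), with 111 and 89 without kidney vehicle 1 and 10, and 109, 98 and 108 without kidney empagliflozin 1, 4 and 9. Heart changes ranged from 0 to 17 (without heart empagliflozin replicate 9).

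Of the 41 named differences, 41 kept the call with DESeq2 size factors, 38 of 38 with DESeq2's test, 32 with limma voom, 16 with the original run alone, 9 and 6 with the replicate blocks, and 26 whichever library was left out. Besides the genes so described above, the call was held in 36 of 39 such fits for Abcc8 (differences of 0.76 to 0.99), 35 for Ndufb7 (0.68 to 0.82), 33 for Ndufb8 (0.35 to 0.43), 36 for Ndufa13 (0.54 to 0.66), 26 for Atp5f1d (0.54 to 0.64), 21 for Ndufv3 (0.46 to 0.57), 24 for Cubn (-1.28 to -0.97), 28 for Lum (-2.49 to -1.16) and 38 each for Irs2 (-0.76 to -0.61) and Ndufb10 (0.41 to 0.52). None changed sign in these alternatives. Low counts limited the genes that are scarce in an organ: the kidney change of Lum had an SE of 0.51, against a median SE of 0.097 over genes measured in both organs.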

Other observations

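The authors' deposited tables, made for each organ separately, list 73 heart genes (57 higher) of 8717 with an adjusted p and 550 kidney genes (231 higher) of 13346 at an adjusted p under 0.05, and 4 genes are in both, 3 with the same direction and 1 opposite. The opposite one is Ddt, at 0.31 in heart (adjusted p = 0.00519) and -0.41 in kidney (adjusted p = 0.000363) in the authors' deposited table. Of the 154 genes called here, 95 are among the 550 and 16 among the 73, and all 154 have the same sign of heart minus kidney in the authors' deposited tables, which come from the same libraries. For Pdk4 the authors' deposited table gives -0.51 in heart (adjusted p = 0.00826) and -0.31 in kidney (adjusted p = 0.0170), and for Bcat2 it gives 0.46 in heart (adjusted p = 5.79e-06) and 0.18 in kidney (adjusted p = 0.133).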
